A study of Mus musculus with 8 samples.

Results

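The enzymes that make serine and pass its carbon into the folate pool were followed as 10 genes: Phgdh, Psat1, Psph, Shmt1, Shmt2, Mthfd1, Mthfd1l, Mthfd2, Aldh1l1 and Aldh1l2. They were taken as a named list, and every probe set whose array annotation names one of them was read. This gave 26 of 45101 probe sets. For 24 of them the gene was the only symbol, and 2 Phgdh probe sets also listed a predicted gene and were kept apart. All 10 genes lay above the filter on dim probe sets and were among the 13174 genes tested.

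Total RNA from mouse cerebral cortex had been hybridised to 8 Affymetrix arrays, 2 in each of 4 groups. The first group received vehicle and served as control, the second the growth factor FGF2, the third FGF2 with U0126, and the fourth FGF2 with SB202190. FGF2 acts through receptor tyrosine kinases, U0126 inhibits the kinase MEK that activates ERK, and SB202190 inhibits the kinase p38. The title names astroglia as the cells of interest, and strain, age, dose, time and whether the RNA came from culture or from tissue are not given in the sources used here. SB202190 replicate 2 carries the treatment type acclimatization where every other array carries wait. No array of an inhibitor without FGF2 was analysed here, and the labels do not say whether the 2 replicates of a group were separate cultures or animals. The p-values rest on the spread within groups of 2 samples, pooled over the 4 groups and drawn toward that of genes of similar signal. Part or all of this spread may therefore be technical.

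Serine is made from the glycolytic intermediate 3-phosphoglycerate in 3 cytosolic steps, by PHGDH, PSAT1 and PSPH. Serine hydroxymethyltransferases (SHMT) then move a carbon from serine to tetrahydrofolate, giving glycine, and each later folate reaction has a cytosolic and a mitochondrial enzyme, so that mitochondria export formate for purine and thymidylate synthesis. In brain, astroglia rather than neurons are known as the main site of serine synthesis, and ALDH1L1, the cytosolic 10-formyltetrahydrofolate dehydrogenase, is a widely used astrocyte marker.

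The sequence just before the start of 3 of these genes is shown because their responses differ: Phgdh and Psat1 rose with FGF2 and gave no call when U0126 was added, whereas Mthfd2 rose a second time with U0126. Each line is 120 bases on the minus strand, 5′ to 3′, ending at the base before a RefSeq start (build GRCm38.p6). Psat1 had 2 such starts, and the upstream one is shown. The Mthfd2 start shown lies within the annotated gene, which spans chr6:83305704-83326011. The stretches are chr3:98339970-98340089 for Phgdh, chr19:15925060-15925179 for Psat1 and chr6:83317605-83317724 for Mthfd2. Capitals mark CCAAT on either strand, and in Phgdh also the core of an antioxidant response element (ARE), TGACNNNGC, which reads in reverse there.
Phgdh: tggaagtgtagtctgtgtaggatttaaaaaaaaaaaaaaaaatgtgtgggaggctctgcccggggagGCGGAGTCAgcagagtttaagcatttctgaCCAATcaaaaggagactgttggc
Psat1: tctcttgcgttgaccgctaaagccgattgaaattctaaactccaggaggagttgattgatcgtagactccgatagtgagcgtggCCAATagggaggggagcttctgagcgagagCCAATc
Mthfd2: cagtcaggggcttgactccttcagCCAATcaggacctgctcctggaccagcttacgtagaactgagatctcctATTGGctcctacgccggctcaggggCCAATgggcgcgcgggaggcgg

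CCAAT stood 1 time in the Phgdh stretch, 2 times in that of Psat1 and 3 times in that of Mthfd2. Windows of 300 bases, from 250 before to 50 after the start, were given for 9 of the 10 genes, and Aldh1l2 had no entry. Psat1 had 2 windows, and that of the start not shown held 0 matches of CCAAT and 2 of GGGCGG. The letters CCAAT, searched after the sequences had been read, were in a window of 7 of the 9 genes and in 37.4% of 32851 RefSeq windows. GGGCGG, the GC box, was found for 6 genes and in 35.7% of windows, and TGACNNNGC for 2 genes, Phgdh and Psph, and in 12.4% of windows. TGATGNAA, the core bound by ATF4 with C/EBP proteins, was in none of the 9 genes' windows and in 3.97% of all, and the E-box CACGTG was in none of theirs and in 7.15% of all. Both strands were searched, and no pair of these motifs was treated as overlapping. A match is a description of the letters in this window.

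FGF2 arrays carried more transcript of all 3 serine synthesis enzymes and of the mitochondrial folate enzymes, and less of Aldh1l1. Cytosolic Shmt1 and, by a smaller step, cytosolic Mthfd1 were also higher. Of the 10 genes 9 were called higher and 1 lower against vehicle, where a call is an adjusted p under 0.05 by limma with Benjamini-Hochberg adjustment over all genes tested. Over all genes 37.9% were called in either direction, 18.9% higher and 19.0% lower. The median log2 change was 1.25 over the 10 genes and 0.00 over all genes, and 7 of the 9 genes called higher rose at least 2-fold. Signals below are the deposited intensities on a linear scale, with the SD over 2 arrays, and changes are on the log2 scale after normalization, with their SE.

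**Figure D1:**
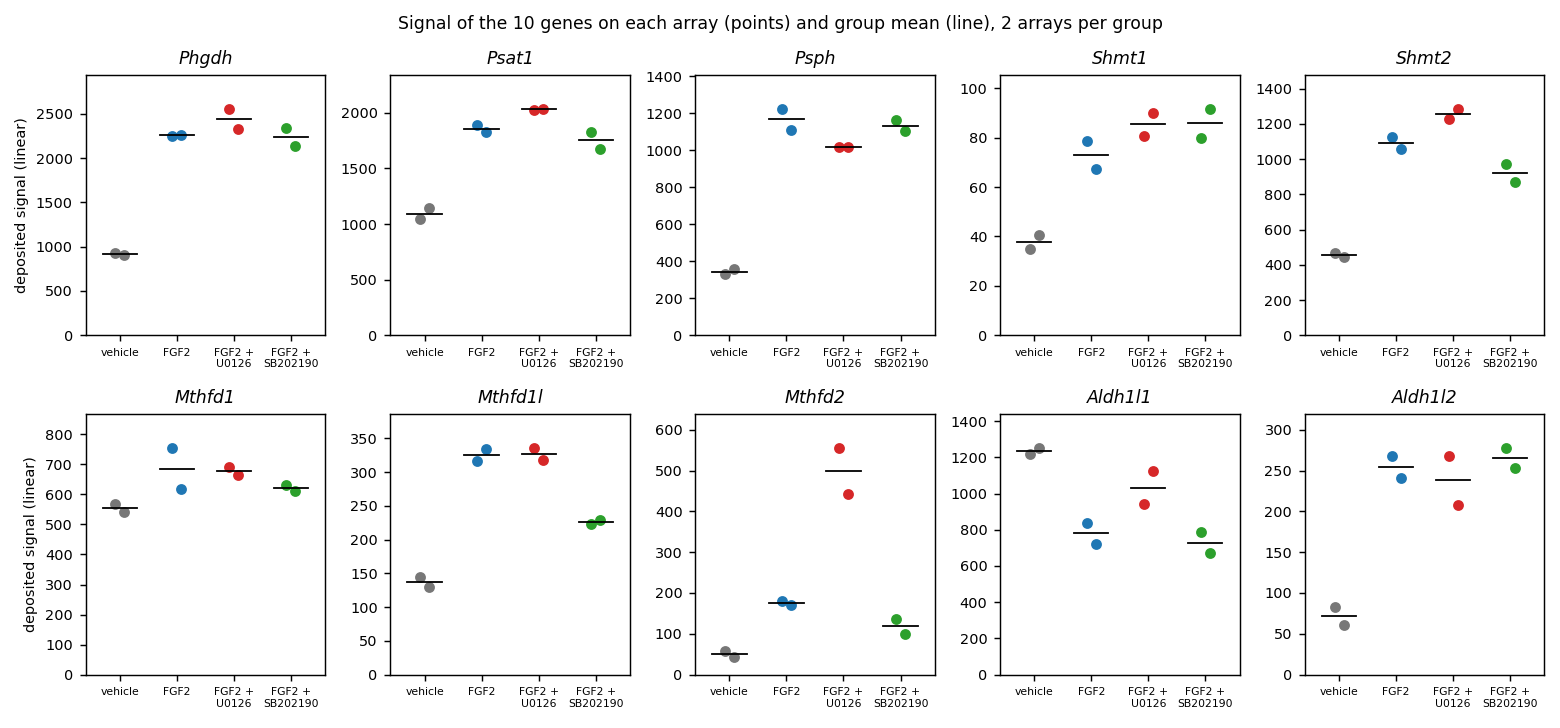
Deposited signal (linear scale, each panel from 0) of the 10 genes on each of the 8 arrays, with points for arrays and a line for the mean of 2 arrays per group. Mthfd2 stands at 442 and 556 with U0126 against 170.0 and 181 with FGF2 alone, and Aldh1l1 is the gene whose vehicle arrays, at 1221 and 1253, are above all others.

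Phgdh, the dehydrogenase that commits 3-phosphoglycerate to serine, read 925 and 910.0 on the vehicle arrays and 2255 and 2261 with FGF2. The groups lay far apart beside a spread of 10.3 and 3.72 (SD, n = 2), and the rise was 1.25 ± 0.07, or 2.38-fold (limma, adjusted p = 1.62e-08). Psat1, the aminotransferase of the second step, went from 1044 and 1141 to 1891 and 1824. Its rise of 0.72 ± 0.06 was below 2-fold (limma, adjusted p = 1.42e-06). Psph, the phosphatase of the last step, went from 333 and 356 to 1226 and 1109, a rise of 1.75 ± 0.07 or 3.36-fold (limma, adjusted p = 2.82e-09). The 95% confidence intervals of the 3 rises, 1.11 to 1.39 for Phgdh, 0.59 to 0.86 for Psat1 and 1.59 to 1.91 for Psph, did not overlap one another. They hold for 1 probe set per gene. Over all their probe sets the rises of Phgdh (0.51 to 1.41) and Psat1 (0.51 to 0.72) overlapped.

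Among the hydroxymethyltransferases, mitochondrial Shmt2 read 468 and 442 with vehicle and 1126 and 1059.6 with FGF2, a rise of 1.25 ± 0.07 (limma, adjusted p = 4.04e-08). Cytosolic Shmt1 was dim, at 34.9 and 40.7 with vehicle and 78.5 and 67.1 with FGF2. It rose by 1.08 ± 0.20 (limma, adjusted p = 6.95e-04), with the widest error of the 10 genes.

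The mitochondrial folate enzymes had larger rises than their cytosolic counterpart. Mthfd2, which oxidises methylenetetrahydrofolate in mitochondria and is known from embryonic and dividing cells, read 57.6 and 44.1 with vehicle and 181 and 170.0 with FGF2. That rise was 1.88 ± 0.18 or 3.67-fold (limma, adjusted p = 2.66e-06). Mthfd1l, the mitochondrial synthetase that releases formate, went from 144 and 130.1 to 316 and 335, a rise of 1.26 ± 0.10 (limma, adjusted p = 6.19e-07). Mthfd1, the trifunctional cytosolic enzyme, read 569 and 542 with vehicle and 755 and 617 with FGF2. Its rise of 0.27 ± 0.09 was the smallest of the 10 (limma, adjusted p = 0.0321) and lost its call without vehicle replicate 1 (0.30, adjusted p = 0.0638), vehicle replicate 2 (0.23, 0.147) or FGF2 replicate 1 (0.13, 0.361).

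The 2 formyltetrahydrofolate dehydrogenases, which return the formyl group as carbon dioxide, moved in opposite directions. Mitochondrial Aldh1l2 read 83.2 and 61.2 with vehicle and 268 and 240.4 with FGF2, a rise of 1.88 ± 0.16 or 3.68-fold (limma, adjusted p = 8.84e-07). Cytosolic Aldh1l1 read 1221 and 1253 with vehicle and 840.2 and 721 with FGF2, a change of -0.70 ± 0.10 on its brighter probe set (limma, adjusted p = 9.64e-05). By size of rise Aldh1l2 ranked 89 and Mthfd2 90 of 13174 genes, and Mthfd1 ranked 3546. Under centring of the arrays on the median of all probe sets, 4018 genes were called higher and 1479 lower, against 2489 and 2502 here, and the median of all genes moved by 0.16; the 10 genes still split 9 higher and 1 lower.

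**Figure D2:**
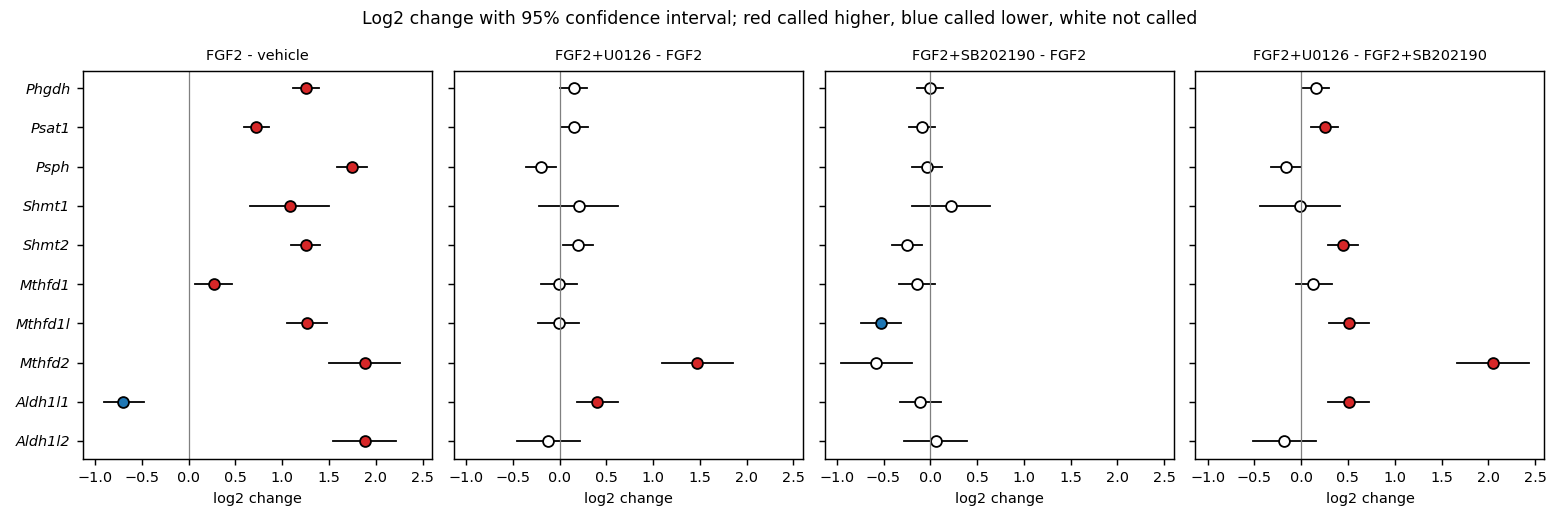
Log2 change of the 10 genes with its 95% confidence interval in 4 comparisons of groups of 2 arrays, where red was called higher, blue lower and white not called. With FGF2 every interval lies off 0, and with U0126 against FGF2 Mthfd2 stands apart at 1.47.

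Adding U0126 to FGF2 took none of the 10 transcripts down by the test and raised Mthfd2 and Aldh1l1. Against FGF2 alone 2 genes were called higher, 0 lower and 8 not called. At an unadjusted p under 0.05 limma gave 5 higher and 1 lower. Over all genes 22.1% were called, 11.6% higher and 10.5% lower, so the 2 of 10 lay near the background. Without FGF2 replicate 1 or 2 the share called was 14.1% and 13.6%. The median change was 0.16 over the 10 genes and 0.03 over all genes.

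Mthfd2 read 556 and 442 with U0126, each above both FGF2 arrays at 181 and 170.0. The rise over FGF2 was 1.47 ± 0.18 or 2.77-fold (limma, adjusted p = 6.90e-05), rank 78 of 13174 by size. It stayed called under the 23 other settings tried, between 1.30 and 1.64. Against vehicle the arrays with FGF2 and U0126 differed by 3.35 ± 0.18 or 10.2-fold (limma, adjusted p = 2.12e-08), and only 1 gene of 13174 rose further there. A second Mthfd2 probe set, dimmer, read 45.1 and 49.1 with vehicle, 128 ± 1.68 (SD, n = 2) with FGF2, and 467 and 317 with U0126. It gave 1.56 ± 0.18 for the step from FGF2 to U0126, adjusted over all probe sets (limma, adjusted p = 2.44e-04).

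Aldh1l1 read 941 and 1125 with U0126, above the FGF2 arrays and below the vehicle arrays. The change from FGF2 was 0.40 ± 0.10 (limma, adjusted p = 0.0106), and the call was lost without FGF2 replicate 2 (0.29, adjusted p = 0.125) or U0126 replicate 2 (0.28, 0.110). Against vehicle it was lower, at -0.29 ± 0.10 (limma, adjusted p = 0.0368), a call lost in 11 of the 23 other settings. Among them were those without vehicle replicate 1 or 2 or U0126 replicate 1 (-0.30, -0.28 and -0.18), no normalization (-0.27), no filter (-0.29) and median centring of all probe sets (-0.06).

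For the 3 serine synthesis genes the changes from FGF2 to FGF2 with U0126 were bounded closely. Phgdh read 2561 and 2326 with U0126 and differed by 0.15, with a 95% interval of 0.01 to 0.29 (limma, adjusted p = 0.115). Psat1 read 2027 and 2039 and differed by 0.16, interval 0.02 to 0.30 (limma, adjusted p = 0.0905). Psph read 1019.6 and 1018 and differed by -0.20, interval -0.36 to -0.04 (limma, adjusted p = 0.0701). Under median centring of the genes tested Psph was called lower (-0.23, limma adjusted p = 0.0433). Each interval lies within a change of 0.36 in either direction, beside FGF2 rises of 0.72 to 1.75.

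Of the other genes, Shmt2 read 1229 and 1287 with U0126 (0.20, limma adjusted p = 0.0678). It was called higher when only the arrays of the comparison were fitted (limma, adjusted p = 0.0464) and without multi-transcript probe sets (0.30, limma adjusted p = 0.0315). By multi-transcript are meant here all probe sets whose name ends in _x_at, _s_at or _a_at. Mthfd1l read 336 and 318, a difference of -0.01 with an interval of -0.23 to 0.21. Aldh1l2, at 268 and 208, gave -0.12 with an interval of -0.45 to 0.22. Shmt1 and Mthfd1 differed by 0.21 and -0.01, also without a call. Over vehicle, 9 of the 10 were called higher and 1 lower with FGF2 and U0126, where 31.7% of all genes were called, 16.7% higher and 15.0% lower. The smallest of these rises, Mthfd1 at 0.26, lost its call on leaving out any 1 of the 2 vehicle, 2 U0126 or 2 SB202190 arrays, at 0.22 to 0.30.

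Adding SB202190 to FGF2 gave 1 call among the 10, Mthfd1l, which was lower. Over all genes 3.02% were called, 1.32% higher and 1.70% lower, a share that fell to 0.630% without FGF2 replicate 1, 0.615% without FGF2 replicate 2 and 0.767% without SB202190 replicate 2. Mthfd1l read 224 and 229, below both FGF2 arrays at 316 and 335 and above both vehicle arrays. The change from FGF2 was -0.53 ± 0.10 (limma, adjusted p = 0.0141). Its size held, between -0.57 and -0.48, but the call was lost on leaving out any of the 4 arrays of this comparison, FGF2 replicate 1 or 2 or SB202190 replicate 1 or 2, with adjusted p up to 0.133.

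Mthfd2 read 136 and 100.3 with SB202190, also below both FGF2 arrays, and its change of -0.58 ± 0.18 was not called (limma, adjusted p = 0.0994). It was -0.80 without SB202190 replicate 1 and -0.36 without SB202190 replicate 2. Shmt2, at 971 and 868, changed by -0.25 ± 0.07 without a call (limma, adjusted p = 0.0839). The other 7 genes changed by between -0.14 and 0.22. Phgdh in particular read 2341 and 2134 beside 2255 and 2261, a difference of 0.00 with an interval of -0.14 to 0.14.

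Over vehicle, 8 of the 10 were called higher and 1 lower with FGF2 and SB202190, beside 35.8% of all genes called, 18.0% higher and 17.8% lower. The gene without a call was Mthfd1, at 631 and 611 (0.13, limma adjusted p = 0.306). Mthfd1l stood 0.74 ± 0.10 and Mthfd2 1.30 ± 0.18 above vehicle.

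The inhibitor groups, both given FGF2, also differed from each other. With U0126 5 of the 10 genes were higher than with SB202190 and 0 lower, where 12.4% of all genes were higher and 10.3% lower. Without SB202190 replicate 2 the share of all genes called fell from 22.7% to 13.7%. At an unadjusted p under 0.05 limma gave 6 higher and 0 lower. Mthfd2 differed most, by 2.05 ± 0.18 or 4.14-fold (limma, adjusted p = 3.74e-06), rank 19 of 13174. Mthfd1l (0.51, adjusted p = 0.00245), Aldh1l1 (0.51, 0.00242), Shmt2 (0.45, 6.44e-04) and Psat1 (0.25, 0.0119) were also higher by limma. Psat1 lost its call without U0126 replicate 2 or SB202190 replicate 2, and under both forms of median centring (0.22 and 0.17). This comparison shares no arrays with FGF2 alone.

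**Figure D3:**
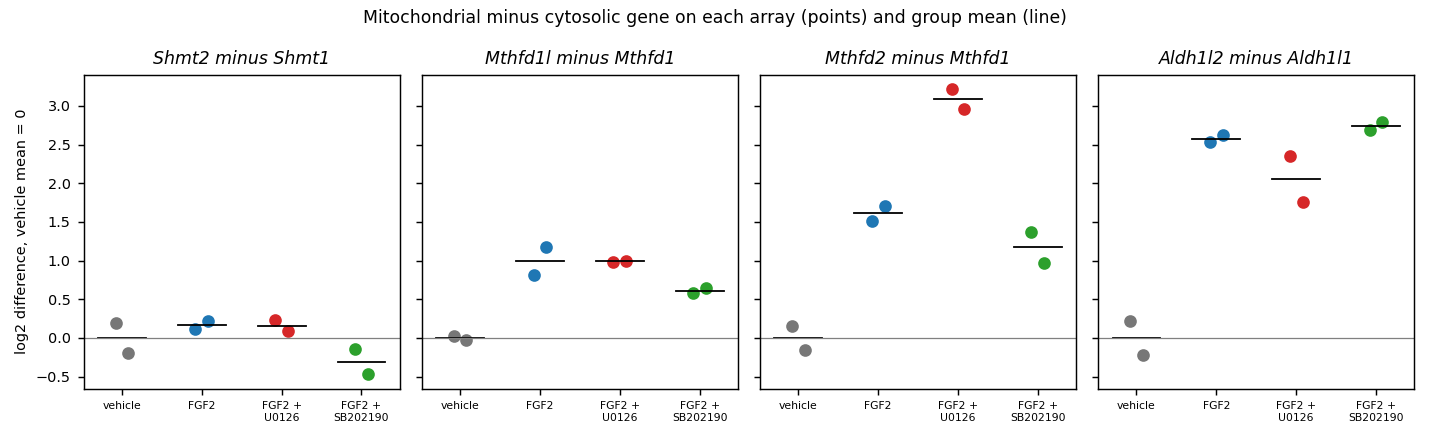
Difference of log2 values between the mitochondrial and the cytosolic gene of 4 pairs on each of the 8 arrays (points) with the group mean (line), set to 0 at the vehicle mean. The difference of Mthfd2 over Mthfd1 is highest with U0126 (3.09), and that of Aldh1l2 over Aldh1l1 is above 1.7 on every array with FGF2.

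Within each array the mitochondrial gene of a pair can be set against the cytosolic one, as a log2 difference relative to vehicle. With FGF2 alone the pair that shifted most was Aldh1l2 over Aldh1l1, to 2.53 and 2.62, with vehicle arrays at 0.22 and -0.22. With U0126 it stood at 2.35 and 1.76, and with SB202190 at 2.69 and 2.79. Arrays with FGF2 did not overlap the vehicle arrays in this pair.

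Mthfd2 over Mthfd1 was 1.51 and 1.71 with FGF2, 3.22 and 2.96 with U0126 and 1.37 and 0.97 with SB202190. Mthfd1l over Mthfd1 was 0.81 and 1.18 with FGF2, 0.98 and 1.00 with U0126 and 0.58 and 0.64 with SB202190. Shmt2 over Shmt1 was 0.12 and 0.22 with FGF2, 0.23 and 0.09 with U0126 and -0.14 and -0.47 with SB202190, beside 0.19 and -0.19. In the SHMT pair the arrays with FGF2 lay on both sides of the vehicle range or within it, lowest on SB202190 replicate 2, whereas in the other 3 pairs every array with FGF2 lay above it. With 2 arrays against 2 an exact permutation test cannot give a p below 0.333, and none was made.

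**Figure D4:**
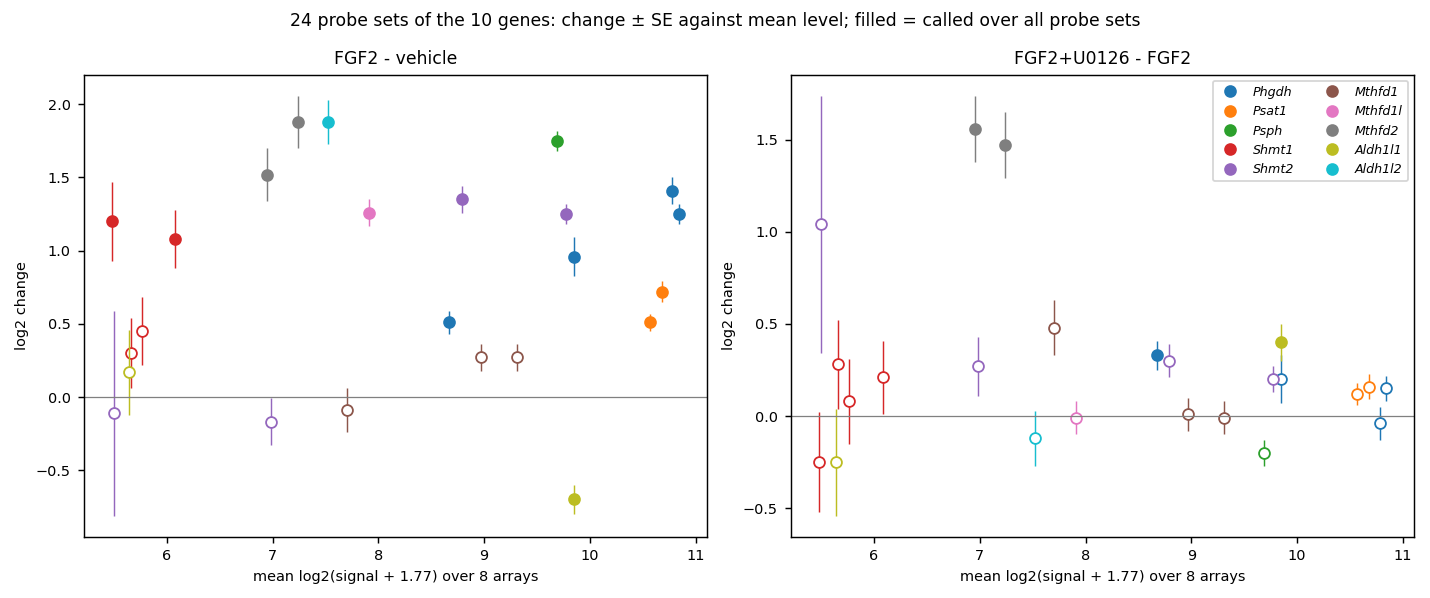
Log2 change ± SE of the 24 probe sets of the 10 genes against their mean log2 signal over 8 arrays, filled where called over all probe sets, for FGF2 against vehicle (left) and U0126 added to FGF2 (right). Those without an FGF2 call are 2 each of Shmt1 and Shmt2, 1 of Aldh1l1 and all 3 of Mthfd1.

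Probe sets of a gene did not all give the same answer. Of the 24, 15 were called higher with FGF2, 1 lower and 8 not, where 16.7% of all probe sets were called, 8.74% higher and 7.92% lower. The 4 Phgdh probe sets with that symbol alone were all higher, by 0.51 to 1.41, and those also listing Gm8096 or Gm6756 gave 1.35 and 0.90. Every Phgdh probe set has a name ending in _x_at or _s_at, so none is left without multi-transcript probe sets. The Phgdh rise was thus not read on a probe set of any other kind, and the part of related sequences in it was not tested. With U0126 against FGF2 4 of the 24 were higher and 0 lower, where 8.06% of all probe sets were called, 3.88% higher and 4.19% lower, and limma at an unadjusted p under 0.05 gave 9 higher and 1 lower. Among the 4 was 1 of Phgdh (0.33, limma adjusted p = 0.0325 over all probe sets), while the brightest Phgdh probe set gave 0.15 without a call. Both Psat1 probe sets were called higher with FGF2 (0.51 and 0.72), and neither was with U0126 against FGF2 (0.12 and 0.16).

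For Shmt2 the bright pair gave 1.25 and 1.35, and the other pair -0.17 ± 0.16 and -0.11 ± 0.70, neither called. Of these the last read 47.5 and 24.2 with vehicle and 55.2 and 13.7 with FGF2, a spread as wide as its level. Shmt1 had 2 of 4 probe sets called. All 3 Mthfd1 probe sets went uncalled over all probe sets (0.27, 0.27 and -0.09). A dim Aldh1l1 probe set, at 47.0 and 57.1 with vehicle and 48.3 and 59.6 with FGF2, gave 0.17 ± 0.29 where the bright one fell. With the mean of the probe sets of a gene, Aldh1l1 gave -0.26 with FGF2 (limma, adjusted p = 0.178) and 0.08 with U0126 against FGF2 (0.772), and Shmt2 gave 0.58 with FGF2 (0.0759), all without a call.

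Over the 8 arrays all the enzyme genes but Aldh1l1 correlated positively with one another. Pearson correlations of log2 values show this (n = 8, with the group differences included). Phgdh and Psat1 correlated at 0.98, Psat1 and Shmt2 at 0.99, and Psph and Aldh1l2 at 0.98. With Phgdh, Psat1 and Psph, Shmt1 correlated at 0.95, 0.94 and 0.96, and cytosolic Mthfd1 at 0.74, 0.78 and 0.72. Mthfd1 correlated at 0.81 with Shmt2 and at 0.80 with Mthfd1l. Mthfd2 followed Shmt2 (0.92) and Psat1 (0.91) more closely than Aldh1l2 (0.74) or Psph (0.71). Aldh1l1 was negative with all the others, between -0.81 and -0.25.

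By the same measure the 5 closest genes outside the list were taken for each enzyme. For Mthfd2 they were Xpot (0.986), a tRNA exporter, the tRNA synthetase genes Iars (0.986) and Cars (0.984), Atf5 (0.985), a transcription factor, and Slc1a5 (0.984), a neutral amino acid transporter. For Shmt2 they were Pabpc4 and Asns (both 0.998), Mrpl38, Antkmt and Slc7a5 (0.993). Asns is asparagine synthetase and Slc7a5 an amino acid transporter. For Phgdh they were Wars (0.995), Rrad, Rars, Tgif1 and Nop9 (0.991), of which Wars and Rars encode tRNA synthetases. For Psat1 they were Emg1 (0.996), Bcl7b, Slc7a5, C1qbp and Asns (0.992). For Psph they were Ppp3cb, a calcineurin subunit (0.997), Ipo5, Spred3, Rpl7a and Trim66 (0.994). Shmt1 was closest to Tmem185b (0.992), Zfp593, Cox6a2, Noct and Mak16 (0.983), and Mthfd1l to the histone gene H2az1 (0.995), Nudcd1, Ppp1r14b, Krtcap2 and Wnk3 (0.986). Aldh1l2 was closest to Rin1 and Dusp4 (both 0.993), Rnf14, Rps27l and Kank1 (0.988). Aldh1l1 was closest to Dync2li1 (0.989), Iqsec1, Gpr146, Tsc22d4 and Sdf4 (0.984). Mthfd1 had only 2 genes above 0.95, Mcph1 and Fbh1, followed by Gm10512, Ets2 and Naa40 (0.917), where the others had 81 to 253 above it.

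**Figure D5:**
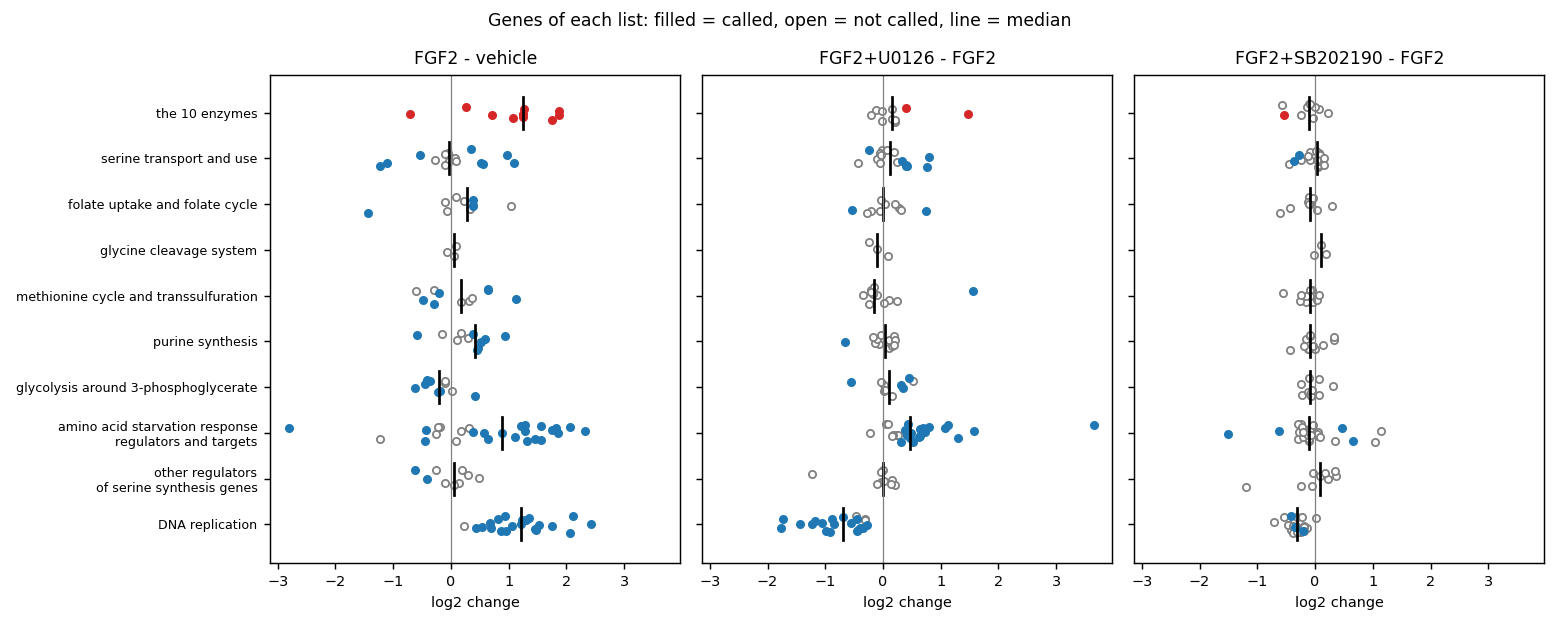
Log2 change of each measured gene of the 10 enzymes (top) and of 9 related lists in 3 comparisons, filled where called and open where not, with a line at the list's median. The 10 enzymes have a median of 1.25 with FGF2, beside 0.89 for the amino acid starvation list and 1.21 for DNA replication, and with U0126 the DNA replication list has the lowest median of those drawn (-0.69).

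Related lists had medians between -0.21 (glycolysis) and 1.21 (DNA replication) with FGF2, beside 1.25 for the enzymes. The counts below stand beside 18.9% of all genes called higher and 19.0% lower with FGF2. Against FGF2 these shares were 11.6% and 10.5% with U0126, and 1.32% and 1.70% with SB202190. Among 16 measured genes that carry or use serine, 5 were higher and 3 lower with FGF2 (median -0.03). Slc6a9, a glycine transporter (0.98), Slc1a5 (1.09) and Sfxn1, the mitochondrial serine carrier (0.56), rose. Slc38a1 (-1.23) and Slc38a2 (-1.11), which carry small neutral amino acids, and Srr, serine racemase (-0.54), fell. With U0126 6 were higher than with FGF2 and 1, Serinc1 (-0.24), lower, and with SB202190 0 were higher and 2, Slc3a2 (-0.28) and Slc38a2 (-0.36), lower. The 7 calls with U0126 became 4 without FGF2 replicate 1 or U0126 replicate 1, and the 2 with SB202190 became 0 without FGF2 replicate 1, FGF2 replicate 2 or SB202190 replicate 2.

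In the folate list 2 of 10 were higher with FGF2, Sardh (0.39) and Mthfd2l, the second mitochondrial dehydrogenase (0.38), and 1 lower, the folate receptor Folr1 (-1.44). Both counts lay near or below the share over all genes. Mthfd2l, a relative of Mthfd2, read 224 ± 7.79 with vehicle, 289 ± 9.68 with FGF2 and 282 ± 21.5 with U0126 (SD, n = 2). Of the 3 measured glycine cleavage genes limma called 0 with FGF2 or with either inhibitor against it, and at an unadjusted p under 0.05 it gave 0 with FGF2, 1 lower with U0126 and 0 with SB202190. Gldc, the glycine decarboxylase, gave -0.06, -0.25 and 0.19.

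Purine synthesis genes, which use the formyl group, included 6 of 12 higher and 1, Prps2 (-0.58), lower with FGF2 (median 0.42), with Adss at 0.94, Adsl at 0.59, Gart at 0.53, Atic at 0.47 and Gmps at 0.39. With U0126 only Adss was called among them, at -0.66 against FGF2. In the methionine list 3 of 11 were higher, Srm (1.13), Mtap (0.65) and Ahcy (0.64), and 3 lower, Ahcyl2 (-0.48), Mat2b (-0.30) and Ahcyl1 (-0.20). With U0126 the single call in that list was Cth, cystathionine gamma-lyase, which went from 123 ± 21.0 to 369 ± 50.3 (1.56 ± 0.17, limma adjusted p = 3.02e-05). Upstream, 1 of 10 glycolysis genes, Ldha (0.41), was higher with FGF2 and 6 were lower, among them Ldhb (-0.45) and Aldoa (-0.36), a split that became 3 higher and 0 lower under median centring of all probe sets. Without FGF2 replicate 2 the 7 glycolysis calls became 4, and without U0126 replicate 2 the 1 methionine call became 3.

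Regulators and targets of the amino acid starvation response, a pathway in which ATF4 induces amino acid synthesis and transport genes, were higher in 17 of 27 cases with FGF2 and lower in 3 (median 0.89). Asns (2.32), Slc7a5 (2.07), Nupr1 (1.85), Eif4ebp1 (1.56), Aldh18a1 (1.56) and Atf5 (1.28) rose, and Atf3 (-2.81), Cebpb (-0.45) and Ddit4 (-0.43) fell. With U0126 19 were higher than with FGF2 and 0 lower (median 0.47), with 22 higher and 1 lower by limma at an unadjusted p under 0.05. Ddit3 (1.30), Eif4ebp1 (0.70) and Atf5 (0.73) had the smallest p. Atf4 itself, named after its values were seen, gave 0.18 with FGF2 (not called) and 0.64 with U0126 (limma, adjusted p = 0.00944). With SB202190 2 were lower, Nupr1 (-1.51) and Pck2 (-0.63), and 2 higher, Slc7a11 (0.66) and Ddit3 (0.46), and these 4 calls became 1 without FGF2 replicate 1 or SB202190 replicate 2 and 2 without FGF2 replicate 2.

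Among 9 other genes reported to act on serine synthesis genes, 0 were higher with FGF2 and 2 lower, Sirt1 (-0.63) and Kdm4c (-0.42), calls that became 0 without vehicle replicate 1 and 1 without FGF2 replicate 1 or 2. Myc, named after its values were seen, gave 0.30 without a call (limma, adjusted p = 0.0709). DNA replication genes, which mark S phase, were higher in 20 of 21 cases with FGF2 (median 1.21) and lower in 17 with U0126 against FGF2 (median -0.69).

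Markers of several cell types, astrocytes among them, differed between some of these groups. All 12 measured astrocyte markers were above the filter, and their summed signal was 24873 to 25181 with vehicle, 14103 to 14137 with FGF2, 16421 to 16996 with U0126 and 13675 to 13804 with SB202190. Of these 12, 11 were lower and 1 higher with FGF2, the direction of Aldh1l1 and the opposite of the other 9 enzymes. Meningeal fibroblast and pericyte markers, 10 of 10 above the filter, summed to 12275 to 12508 with vehicle and 6609 to 7042 with FGF2, and ependymal and choroid plexus markers, 7 of 8, to 6358 to 6596 and 3611 to 4499. Oligodendrocyte precursor markers, 6 of 7 above the filter, summed to 2795 to 2854 with vehicle, 4160.4 to 4205 with FGF2, 3061 to 3170.1 with U0126 and 3422 to 3552 with SB202190. Most of this sum was Olig1, at 1634 with vehicle and 3212 with FGF2. With FGF2 it was the 1 called higher (0.91, limma adjusted p = 5.44e-08), and 2 were lower, Bcan (-0.32) and Lhfpl3 (-0.88). The median of the precursor markers was -0.36. Myelinating oligodendrocyte markers, 3 of 7 above the filter, summed to 2597 to 2711 with vehicle and 2145 to 2278 with FGF2. With U0126 the sum was 1671 to 1675 and with SB202190 2254 to 2444. With FGF2 2 were called lower, Cnp (-0.30) and Mal (-0.92), and 0 higher. Endothelial markers, 3 of 8 above the filter, summed to 174 to 179 with vehicle and 152 with FGF2. Of these 1 was called lower with FGF2, Kdr (-1.72), and 0 higher. Neuronal markers, 6 of 12 above the filter and Rbfox3 and Snap25 under it, summed to 1862 to 1913, 2080.1 to 2203, 1695 to 1771 and 2434 to 2448 with vehicle, FGF2, U0126 and SB202190. Most of this sum was Stmn2 (mean signal 1654), followed by Eno2 (152). With FGF2 3 were called higher, among them Tubb3 (1.28) and Stmn2 (0.15), and 0 lower. Microglial markers, 4 of 10 above the filter and Aif1 and Cx3cr1 under it, summed in that order to 221 to 275, 263 to 288, 399.5 to 405 and 291 to 303. Cd68 was higher with U0126 than with FGF2 (0.94, limma adjusted p = 9.98e-04). The other 3 measured microglial markers, Tyrobp (-0.28), Fcrls (-0.43) and Csf1r (-0.07), were lower there without a call. The part of these cell types in the changes of the enzymes was not tested. In bulk RNA fewer cells of a type and less RNA per cell cannot be told apart.

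Replicates correlated at 0.980 to 0.984 over all genes and arrays of different groups at 0.947 to 0.981. The 3′ to 5′ signal ratio of Actb lay between 1.26 and 1.41 on the 8 arrays and that of Gapdh between 0.697 and 0.777. Median signals were 26.6 and 27.8 on the vehicle arrays and 22.3 to 24.3 on the others.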

How the data were processed

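The authors deposited linear intensity values, one per probe set and array. How they were computed is not given in the sources used here. Their mean after trimming 2% at each end was 150.001 on every array. Of the probe sets 34958 carried 1 gene symbol, 932 several and 9211 none. Values were taken to log2(value + 1.77), the 10th percentile of all values, which understates changes of low signals, and quantile normalized. The brightest probe set of a gene, by mean over arrays, stood for it, and 13174 of 18194 genes had a mean above the 40th percentile (log2 3.83).

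Changes, SE and two-sided p came from limma 3.58.1 (R 4.3.3), fitted to all arrays jointly with an intensity trend (4 residual, 8.99 prior degrees of freedom), and Benjamini-Hochberg adjustment over all genes of each of 6 comparisons. A call is an adjusted p under 0.05. The number of arrays limits the precision. The fit was tested on simulated data.

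The genes and lists were chosen with earlier results of these data known. Named from each list were up to 6 genes with the smallest p for FGF2, up to 3 for each inhibitor, and those called against the list's direction; for likeness, the 5 genes of highest correlation. List genes without a matching symbol were not analysed here. Promoter windows came from RefSeq (GRCm38.p6). Same-numbered replicates deviated together in no pair of groups (correlations -0.03 to 0.03), so the number was not used as a pairing.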

Additional observations from a re-analysis of the deposited data

How the results depend on the processing

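Over the 23 other settings, log2 changes of single enzymes kept their direction and side of the threshold 1279 times. They kept their direction but lost a call 51 times and gained one 5 times. The direction changed 25 times where neither value was called, and 2 times where the main value was called. The FGF2 rises of Phgdh, Psat1, Psph, Shmt1, Mthfd1l, Mthfd2 and Aldh1l2 and the U0126 rise of Mthfd2 were called in each setting that measured them. The cause was not tested except where a setting leaves fewer genes or arrays. Without multi-transcript probe sets, which leaves none for Phgdh, Psat1 and Mthfd1l and so 7 genes, the calls were 6 for FGF2 against vehicle (10 in the main analysis), 0 for SB202190 against FGF2 (1), 2 for U0126 against SB202190 (5), 6 for U0126 against vehicle (10) and 5 for SB202190 against vehicle (9). There Aldh1l1 rests on its dim probe set and reversed, to 0.17 with FGF2 and -0.25 with U0126 against FGF2. The 2 calls for U0126 against FGF2 became 1 without the intensity trend, with the mean of the probe sets of a gene and at an adjusted p under 0.01. The 1 call for SB202190 against FGF2 became 0 without the trend and at 0.01, with 3 genes by limma at an unadjusted p under 0.05. The 5 for U0126 against SB202190 became 3 without the trend and 3 with the mean of probe sets. With the replicate block the SB202190 count was 2, both lower, Mthfd2 being added at -0.58 (limma, adjusted p = 0.0373), and no other call on the 10 genes changed. Leaving out each array in turn gave 9 to 10 calls for FGF2 against vehicle, 1 to 2 for U0126 against FGF2, 0 to 1 for SB202190 against FGF2, 4 to 5 for U0126 against SB202190, 8 to 10 for U0126 against vehicle and 9 to 9 for SB202190 against vehicle. Where 1 array was left in a group, it was assumed to vary like the others.

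Over all genes, 2916 calls for U0126 against FGF2 became 1619 without the trend, 1620 at 0.01, 1782 with the mean and 1851 and 1786 without FGF2 replicate 1 and 2. The 398 for SB202190 became 0 without the trend, 235 with median centring of all probe sets, 115 at 0.01, 170 with the mean, and 83, 81 and 101 without FGF2 replicate 1, FGF2 replicate 2 and SB202190 replicate 2. For U0126 against SB202190, 2986 became 1735 without the trend, 1783 with the mean, 1689 at 0.01 and 1810 without SB202190 replicate 2, and for U0126 against vehicle 4177 became 2713 at 0.01. In the related lists, the 19 starvation calls with U0126 became 11 without the trend. The 7 serine transport calls with U0126 became 4 without the trend, with the mean and at 0.01. The 7 glycolysis calls with FGF2 became 2 to 4 under 3 scalings and without multi-transcript probe sets, and the 2 calls of other regulators 0 to 5. The 3 DNA replication calls with SB202190 ranged from 0 to 5.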
